A study of Homo sapiens with 6 samples.

Results

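The MYC, MAX and MXD network is a family of transcription factors that meet at the same DNA sites, and its 10 genes in this table were MYC, MAX, MXD1, MXD3, MXD4, MXI1, MNT, MLX, MLXIP and MGA. They were taken by symbol from the deposited gene table, which held 17187 symbols, and all 10 had a row and passed the filter on low values. MYC activates genes as a dimer with MAX. MXD1, MXI1, MXD3, MXD4 and MNT compete for MAX and, as dimers with it, recruit SIN3 and histone deacetylases to repress. MLX pairs with MLXIP in a glucose-sensing branch, and MGA joins MAX to a polycomb complex. The balance of activating and repressing dimers is known for its part in cell growth and in the switch between proliferation and arrest. In some other cell types, IFNg is known to lower MYC transcripts.

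The cells were HT-1080, a human fibrosarcoma line obtained from ATCC, of wild-type genotype and grown in EMEM. Control cells were given PBS, and treated cells received recombinant IFNg (interferon gamma) for 8 h at a dose of 10 ng/ml. The series asks how CD8+ T cells, a source of IFNg, bear on tumour cell ferroptosis, and there were 3 total RNA libraries per group. Nothing in the labels ties the libraries to separate cultures, so a p-value here reflects the spread among 6 libraries, and that spread could be technical. A single line was used, so the results describe that line alone.

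Each value below is a normalised read count, meaning reads of a gene divided by 1 size factor per library, with no division by gene length unless a sentence says so. Differences are IFNg minus control on the log2(value + 1) scale with the standard error of the limma fit, and adjusted p is limma's with Benjamini-Hochberg adjustment over 15546 genes, at a threshold of 0.05. Libraries held 59556948 to 83501954 reads in genes, and 1 read was worth 0.835 to 1.16 units. The libraries numbered 3 stood apart in both groups: chi-square per degree of freedom was 38.2 between control 1 and 2 but 86.2 to 105 against control 3, and 15.01 between IFNg 1 and 2 but 54.0 to 58.3 against IFNg 3. Counts are therefore also given without both of them. Of the 9 mesenchymal markers of the labelled line in the table, VIM was at 314888 or above in every library and MMP2, the lowest of 8, at 2978 or above, while S100A4 was at 19.5 to 83.5. Among the 5 leukocyte and 2 epithelial markers in the table the highest value was 157, that of LYZ in control 2, and PTPRC, CD3E, CD14 and KRT5 were at 0 in 2 to 5 of the 6 libraries. All 5 IFNg response genes rose, among them IRF1, from 624 ± 324 (SD, n = 3) to 28355 ± 2187 (SD, n = 3).

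The network binds the E-box CACGTG, and that sequence stands in the promoters of some of its own genes. The windows searched run from 250 bases before to 50 bases after a RefSeq start (GRCh38.p14). Of the 10 members, 9 had such a window, and MYC had no entry. The E-box was found in 3 of these 9 genes, MNT, MXD4 and MLX, against 8.78% of the 27305 symbols with a window. The sites are printed 5′ to 3′ on the gene's strand with the E-box in capitals, because they show members that carry the network's own motif:

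MNT, 193 bases before the start, chr17:2401236-2401265, minus strand: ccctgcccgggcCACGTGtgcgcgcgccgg
MXD4, 238 bases before the start, chr4:2262330-2262359, minus strand: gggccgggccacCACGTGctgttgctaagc
MLX, 50 bases before the start, chr17:42567038-42567067, plus strand: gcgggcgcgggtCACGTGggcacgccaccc

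None of these 3 genes passed the test after IFNg, as their values below show. The motif is its own reverse complement, so both strands were searched at once, and a match in the letters is a description and not a bound site. The IFNg-activated motif GAS, spelled TTCNNNGAA, was in 0 of the 9 members with a window, in 9.38% of all symbols, and in 2 of the 4 IFNg response genes with a window. The ISRE core, which is GAAA, any 2 bases and GAAA again, searched on both strands, was in 0 of the 9 members, in 4.38% of all symbols and in 3 of those 4 response genes. For comparison with the member promoters, the GAS of IRF1, which rose, is printed with its motif in capitals:

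IRF1, 124 bases before the start, chr5:132490878-132490907, minus strand: acagcctgatTTCCCCGAAatgacggcacg

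After IFNg the transcript of MYC, the activating factor, fell and that of its obligate partner MAX rose. MXD1, a repressor that competes with MYC for MAX, was lower in every IFNg library without passing the test, and the other 7 members did not pass it either. By the limma fit 1 member of 10 was higher, where 3.27% of all genes tested were higher, and 1 of 10 was lower, where 1.05% of all genes were. In 2 of 10 members, MAX and MGA, every IFNg library was above every control library, against 10.7% of all genes, and in 3 of 10, MYC, MXD1 and MNT, every IFNg library was below every control library, against 9.28%. The median difference of the 10 members was -0.06, beside -0.01 over all genes tested. Without both libraries numbered 3, 1 member was higher, against 5.67% of genes, and 2 were lower, against 3.85%. The network therefore did not move in 1 direction.

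**Figure D1:**
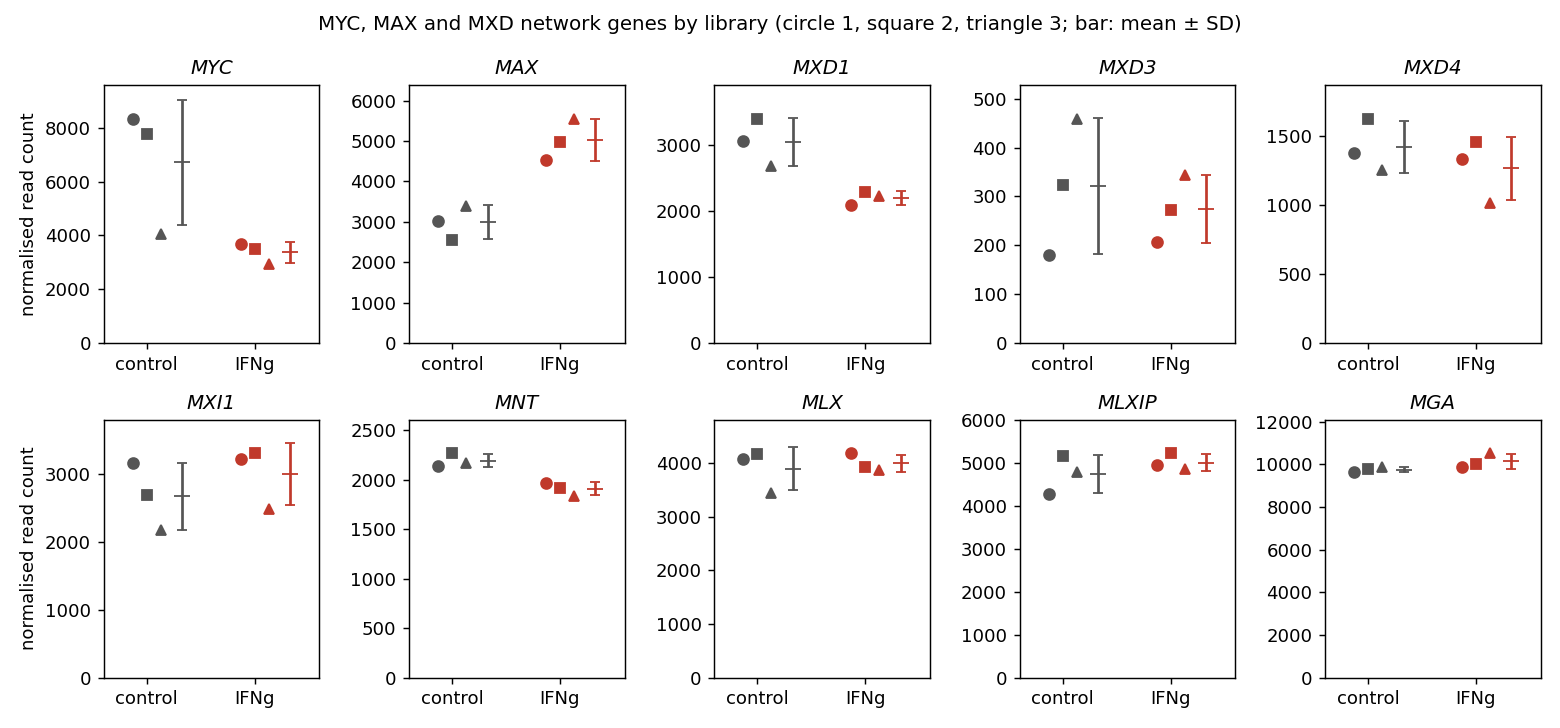
Normalised read count (linear axis from 0, own scale per gene) of the 10 network genes in control and IFNg libraries, with circles, squares and triangles for libraries 1, 2 and 3 and bars for mean ± SD (n = 3). MYC is lower and MAX higher in every IFNg library, and control 3 is the lowest MYC value among controls, at 4059.

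MYC encodes the short-lived activator at the centre of the network. Its normalised read counts were 8347, 7764 and 4059 in control 1, 2 and 3 and 3665, 3509 and 2935 in IFNg 1, 2 and 3. Every IFNg library was below every control library, but control 3 lay much closer to the IFNg libraries than to the other controls. In bulk RNA, fewer expressing cells and less RNA per cell cannot be told apart. The mean fell from 6723 ± 2326 to 3370 ± 384 (SD, n = 3 each), a log2 difference of -0.93 ± 0.22 (95% interval -1.42 to -0.45, limma adjusted p = 0.0339). MYC was read 2534 to 9297 times per library, so counting error was small beside the spread of the controls, whose coefficient of variation was 34.6% against 11.4% in the IFNg group.

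The MYC call depended on which libraries were used, and the direction did not in any alternative run. Without control 3 the MYC difference was -1.26 with a limma adjusted p of 1.34e-05, and without both libraries numbered 3 it was -1.17 with 1.90e-06. Leaving out control 1 gave a limma adjusted p of 0.173 for MYC, control 2 0.186, IFNg 1 0.0911, IFNg 2 0.0847 and IFNg 3 0.143. So the call ended when any 1 library other than control 3 was left out. Those fits called 386 to 486 genes in all, against 672 with all 6 libraries and 1302 without control 3. The MYC call also ended when limma's variance trend was dropped, with an adjusted p of 0.301, where 320 genes were called. It held with edgeR, at 0.0205, and with DESeq2, at 2.94e-05. By limma it held with a replicate block, at 6.80e-07, and with a term for libraries numbered 3, at 2.19e-05.

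MAX is the shared dimer partner of MYC, the MXD proteins, MNT and MGA. Its normalised read counts were 3025, 2558 and 3382 in the controls and 4537, 4974 and 5553 after IFNg. Every IFNg library was above every control library, and IFNg 3 and control 3 were each the highest of their group. The mean rose from 2989 ± 413 to 5021 ± 510 (SD, n = 3 each), 1.68-fold, with a log2 difference of 0.75 ± 0.13 (95% interval 0.48 to 1.03, limma adjusted p = 0.00375).

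The MAX call was kept with any 1 library left out, with differences of 0.65 to 0.85 and limma adjusted p of 0.000679 to 0.0237. Of 18 alternatives it ended in 1, limma without the variance trend, at 0.101. MAX shares its locus with FNTB, a farnesyltransferase subunit on the opposite strand, and how the reads were assigned to strands is not given in the sources used here. FNTB had 28.4 to 156 normalised reads, at most 3.86% of the MAX value in a library.

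Because MYC and MAX moved apart, their ratio within a library separated the groups. MAX reads over MYC reads were 0.362, 0.329 and 0.833 in the controls and 1.24, 1.42 and 1.89 after IFNg. The lowest IFNg ratio was above the highest control ratio, that of control 3. This ratio is not per length, so it is read only across libraries and not as a count of molecules, and it repeats the changes already tested.

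Among the MAX-binding repressors of the MXD group, MXD1, which is known to rise as cells differentiate, came nearest to the threshold. MXD1 had normalised read counts of 3051, 3396 and 2680 in the controls and 2084, 2285 and 2225 after IFNg. Every IFNg library was below every control library, with control 3 again the nearest to the IFNg values. The means were 3042 ± 358 and 2198 ± 103 (SD, n = 3 each), and the log2 difference of -0.46 ± 0.12 (95% interval -0.73 to -0.20) had a limma adjusted p of 0.0541.

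MXD1 passed in 6 of 18 alternatives, among them the fit without control 3, at -0.55 with a limma adjusted p of 0.0117, and the fit without both libraries numbered 3, at -0.56 with 0.00789. It ranked 700 by p among the 15546 genes tested, where MAX ranked 291 and MYC 563. The gene body of MXD1 overlaps SNRNP27, a splicing factor gene on the same strand, in the GENCODE annotation. SNRNP27 was at 1975 ± 222 in the controls and 2136 ± 213 after IFNg, with a difference of 0.12 and a limma adjusted p of 0.771. It reached up to 107% of the MXD1 value in a library, and how reads were assigned between overlapping genes is not given. Relative to MAX, MXD1 reads were 1.01, 1.33 and 0.792 in the controls and 0.459, 0.459 and 0.401 after IFNg. With MAX higher and MXD1 lower in every IFNg library, this ratio had to separate the groups. It adds nothing to the test of MXD1. Relative to MYC, MXD1 reads were 0.366, 0.437 and 0.660 in the controls and 0.569, 0.651 and 0.758 after IFNg, and these ranges overlapped.

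**Figure D2:**
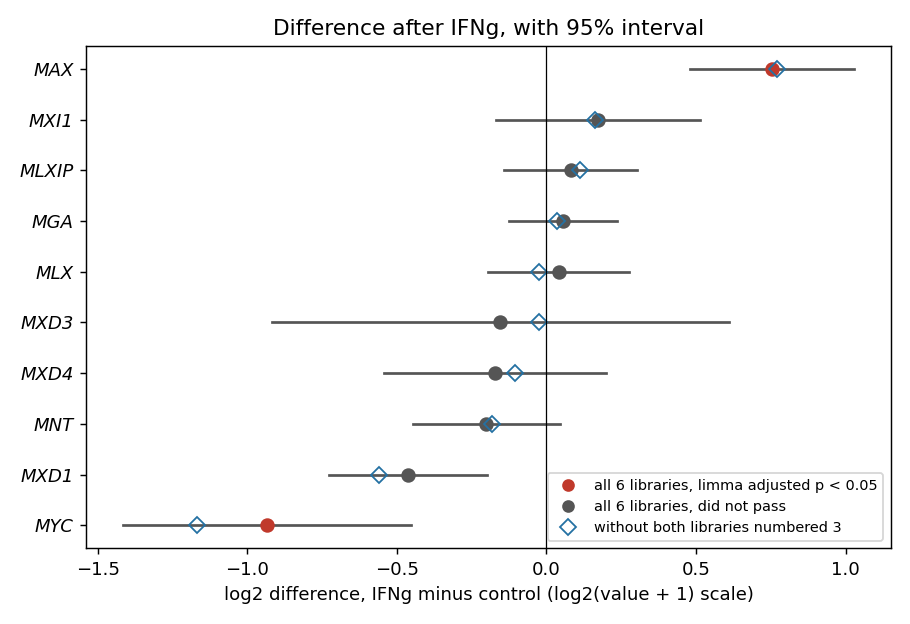
Difference between IFNg and control of the 10 network genes on the log2(value + 1) scale, with 95% intervals of the limma fit over 6 libraries (filled circles, red where adjusted p is below 0.05) and the estimate without both libraries numbered 3 (open diamonds). MAX at 0.75 and MYC at -0.93 are the members that passed, and MXD1 and MYC lie farther from 0 without the libraries numbered 3.

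The plot of differences places the other repressors near 0 and shows how wide their intervals were. MXI1, a MAX-binding repressor also known as MXD2, had normalised read counts of 3163, 2697 and 2178 in the controls and 3223, 3312 and 2489 after IFNg. The groups overlapped, and library 3 was the lowest of each. The difference of 0.17 ± 0.16 (95% interval -0.17 to 0.51) had a limma adjusted p of 0.679.

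MXD4, another repressor of the MXD group and one of the E-box carriers, had values of 1379, 1626 and 1252 in the controls and 1332, 1455 and 1012 after IFNg. The groups overlapped, with library 2 the highest and library 3 the lowest in both. The difference of -0.17 ± 0.17 (95% interval -0.54 to 0.20) had a limma adjusted p of 0.714.

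MXD3, a repressor known to be expressed in proliferating cells, was the least read member, at 180, 323 and 459 in the controls and 206, 273 and 344 after IFNg. The groups overlapped widely, and library 3 was the highest of each. The difference was -0.15 ± 0.35 with a 95% interval of -0.92 to 0.61 and a limma adjusted p of 0.898, and the interval reaches nearly as far down as the MYC difference. MXD3 overlaps RAB24 on the same strand, at 1200 ± 55.9 in the controls, and PRELID1 on the opposite strand, at 15521 ± 1294. Neither strand handling nor the assignment of reads between overlapping genes is given, so the MXD3 value is uncertain.

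MNT, the broadly expressed repressor that opposes MYC in most cells, varied least among the repressors. Its values were 2142, 2267 and 2173 in the controls and 1968, 1920 and 1836 after IFNg. Every IFNg library was below every control library, although the gap between the nearest libraries was small. The means were 2194 ± 64.8 and 1908 ± 66.7 (SD, n = 3 each), and the difference of -0.20 ± 0.11 (95% interval -0.45 to 0.04) had a limma adjusted p of 0.451.

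The branch formed by MLX and MLXIP, which carries glucose signals to the nucleus, held no member that passed the test. MLX, the dimer partner of this branch and of some MXD proteins, had values of 4079, 4176 and 3439 in the controls and 4187, 3935 and 3870 after IFNg. The groups overlapped, with control 3 below all other libraries. The difference of 0.04 ± 0.11 (95% interval -0.20 to 0.28) had a limma adjusted p of 0.918. PSMC3IP lies on the opposite strand at this locus, with up to 34.2% of the MLX value in a library.

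MLXIP, the glucose sensor MondoA, had values of 4289, 5178 and 4800 in the controls and 4952, 5233 and 4863 after IFNg. The groups overlapped, and control 1 was the lowest library. The difference of 0.08 ± 0.10 (95% interval -0.14 to 0.30) had a limma adjusted p of 0.797.

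MGA, a MAX-binding protein with a second, T-box DNA-binding domain, was the most evenly read member. Its values were 9639, 9770 and 9861 in the controls and 9899, 10000 and 10520 after IFNg. Every IFNg library was above every control library, by a narrow margin. The difference of 0.06 ± 0.08 had a 95% interval of -0.12 to 0.23, the narrowest of the 10 members, and a limma adjusted p of 0.831.

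**Figure D3:**
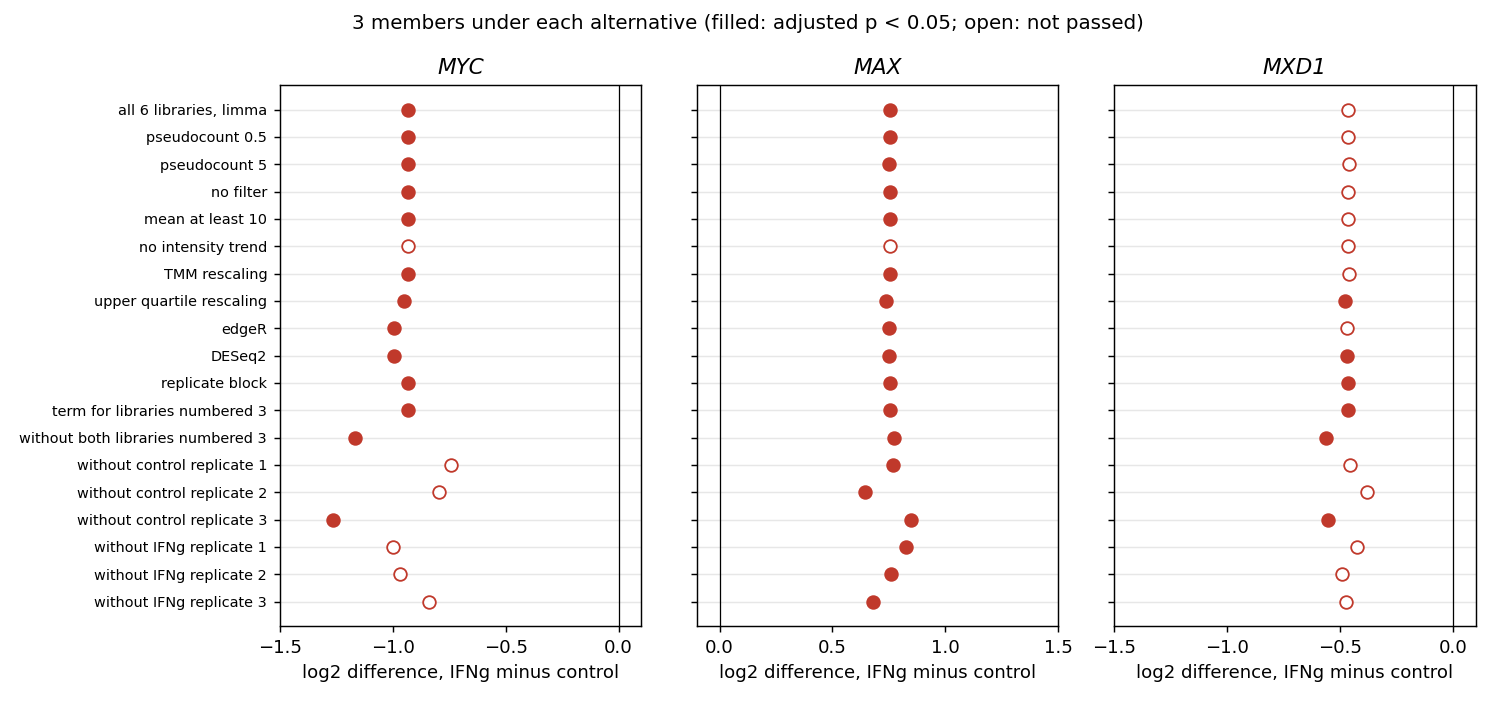
Difference between IFNg and control on the log2 scale for MYC, MAX and MXD1 with all 6 libraries and under each of 18 alternatives, filled where the adjusted p was below 0.05. MAX was filled in 17 of the alternatives, MYC in 12 and MXD1 in 6, and no point crossed 0.

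The plot of alternatives sets the 3 members nearest to or past the threshold side by side. MAX stayed between 0.65 and 0.85 in the fits that left out 1 library, while MYC ranged from -1.26 to -0.74 and MXD1 from -0.55 to -0.38. For MYC and MXD1 the end of each range farthest from 0 was the fit without control 3.

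To compare levels between members, values were divided by the length of the union of each gene's exons in GENCODE (GRCh38, a different build from the authors'). On this scale of normalised reads per kilobase, MYC led in the controls at 2240 ± 775 (SD, n = 3), followed by MLX at 1505 ± 155, MAX at 729 ± 101 and MXI1 at 662 ± 122. MGA at 643 ± 7.36, MXD1 at 542 ± 63.8, MLXIP at 505 ± 47.4, MNT at 439 ± 12.96 and MXD4 at 350 ± 46.9 came next, and MXD3 was last at 97.5 ± 42.5. In 4 of the 9 pairs of neighbours in this order the libraries overlapped: MYC with MLX, MAX with MXI1, MXI1 with MGA, and MXD1 with MLXIP.

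After IFNg, MLX led at 1543 ± 64.5 normalised reads per kilobase (SD, n = 3), followed by MAX at 1224 ± 124 and MYC at 1123 ± 128. The other 7 members spanned 83.3 ± 20.9 for MXD3 to 743 ± 112 for MXI1. The libraries of MAX and MYC overlapped in this group, as did those of MXI1 with MGA and of MXD1 with MNT. In the controls, by contrast, each MYC library stood above each MAX library, at 1353 to 2781 against 624 to 825 normalised reads per kilobase. With the length of the longest coding transcript in place of the exon union, an alternative chosen after the data were seen, MYC led in the controls at 2842 and MAX led after IFNg at 1592, where its libraries overlapped those of MLX.

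**Figure D4:**
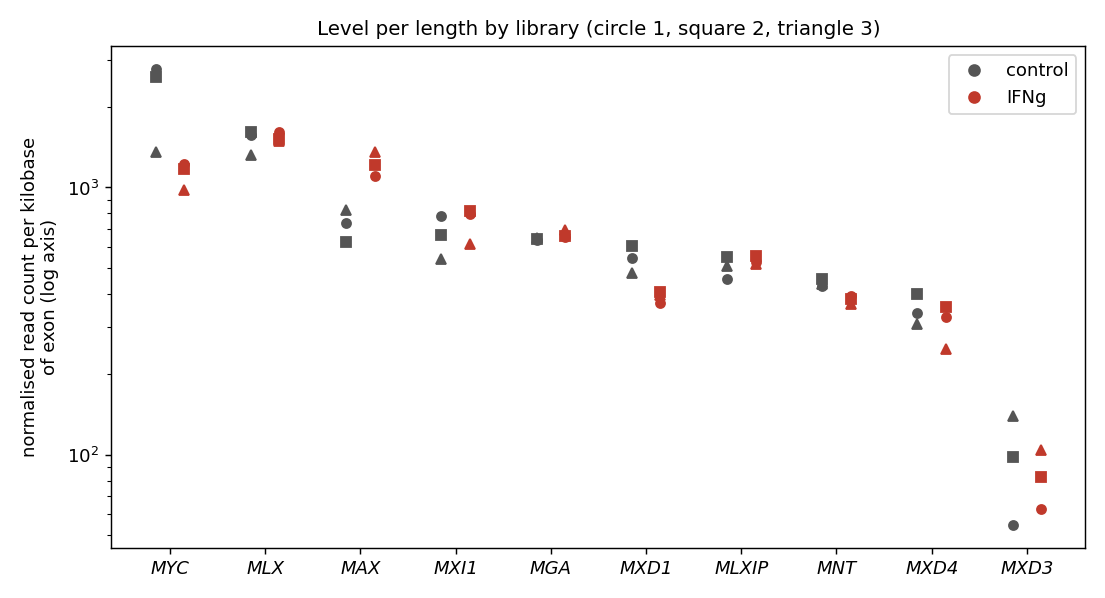
Normalised read count per kilobase of exon (log axis) of the 10 network genes in each library, ordered by the control mean, with circles, squares and triangles for libraries 1, 2 and 3. MYC stands above MAX in every control library and the MYC and MAX libraries overlap after IFNg.

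Close relatives outside the network rule were barely read. MYCN, the neural MYC paralog, was at 0 in every library except IFNg 2, at 6.20. MLXIPL, the ChREBP gene, was at 0 in every library except control 3, at 7.79. MYCL1, the remaining MYC paralog, had values of 64.3, 110 and 78.8 in the controls and 41.8, 17.6 and 42.9 after IFNg. It was lower in every IFNg library, and its difference of -1.35 ± 0.52 had a limma adjusted p of 0.219.

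Proteins that work with MYC were examined in lists drawn from general knowledge. Of 20 MYC cofactors, such as acetyltransferase, remodeller and elongation proteins, 0 passed in either direction by limma, edgeR or DESeq2, and the median difference was -0.05. At an unadjusted limma p under 0.05, 2 were lower and 0 higher, where 6.46% of all genes were lower and 8.81% higher. In 6 of the 20 every IFNg library was below the controls, against 9.28% of all genes, and in 0 above, against 10.7%. Counts of edgeR calls, here and in the lists that follow, stand beside 3.47% higher and 1.22% lower over all genes, and those of DESeq2 beside 4.44% and 2.09%. EP300, an acetyltransferase, had -0.22 ± 0.08 (limma adjusted p = 0.208). EP300 alone passed without both libraries numbered 3, at -0.27 with a limma adjusted p of 0.0340. In that fit 5.67% of all genes were higher and 3.85% lower.

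Of 22 genes for MYC protein turnover and phosphorylation, 0 passed in either direction by limma or edgeR, with a median of -0.04. DESeq2 called 1 higher and 1 lower, and 2 were higher and 4 lower at an unadjusted limma p under 0.05, where 8.81% and 6.46% of all genes were. USP36, a nucleolar deubiquitinase that stabilises MYC, had values of 5400, 5520 and 4131 in the controls and 3299, 3069 and 4169 after IFNg. Both libraries numbered 3 stood between the other controls and the other IFNg libraries, so the groups overlapped, and the difference of -0.51 ± 0.14 had a limma adjusted p of 0.0738. USP37, another deubiquitinase of MYC, had 0.49 ± 0.14 with a limma adjusted p of 0.0851. Leaving out both libraries numbered 3, 5 of the 22 passed, where 5.67% of all genes were higher and 3.85% lower. The ligase subunit SKP2 and USP37 were higher, and USP36 and the kinases GSK3B and PLK1 were lower. The counts were 2 higher and 2 lower without control 3 alone, where 5.45% and 2.93% of all genes were called. Without IFNg 3 alone 2 were lower, where 0.54% of all genes were lower and 2.46% higher. The transcripts say nothing of MYC protein, which was not measured in these files.

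Of 20 genes of the SIN3-HDAC and NCOR corepressors, which the MXD proteins and MNT recruit, limma called 1 higher and 0 lower, as did edgeR, and DESeq2 called 2 higher and 0 lower. At an unadjusted limma p under 0.05, 4 were higher and 1 lower, against 8.81% and 6.46% of all genes. HDAC1, a histone deacetylase, had values of 7608, 8486 and 9776 in the controls and 13098, 13832 and 12304 after IFNg. The groups did not overlap, and the 2 libraries numbered 3 were the closest pair. The mean rose 1.52-fold, with a difference of 0.61 ± 0.10 (limma adjusted p = 0.00471), and the call was lost in 1 of 18 alternatives, without the variance trend. In 8 of the 20 genes the IFNg libraries were all above the controls, against the 10.7% of all genes given above. In 1 they were all below, against 9.28%, and the median of the list was 0.09. With both libraries numbered 3 left out, the list again had 1 gene higher, HDAC1, and 0 lower, against 5.67% and 3.85% of all genes. Without control 3 alone it had 2 higher, HDAC1 and SAP30, against 5.45% of all genes.

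Of 13 further subunits of the MGA polycomb complex, 0 passed by limma, edgeR or DESeq2, 0 had an unadjusted limma p under 0.05, and the median was 0.01. L3MBTL2, a chromatin-binding subunit, had 0.23 ± 0.13 (limma adjusted p = 0.475), and CBX3, a heterochromatin protein, had 0.15 ± 0.09 (limma adjusted p = 0.494). TFDP1 alone was higher without both libraries numbered 3, at 0.31 with a limma adjusted p of 0.0197. It was also the 1 gene called without control 3 alone. The shares of all genes called higher in these fits were 5.67% and 5.45%.

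**Figure D5:**
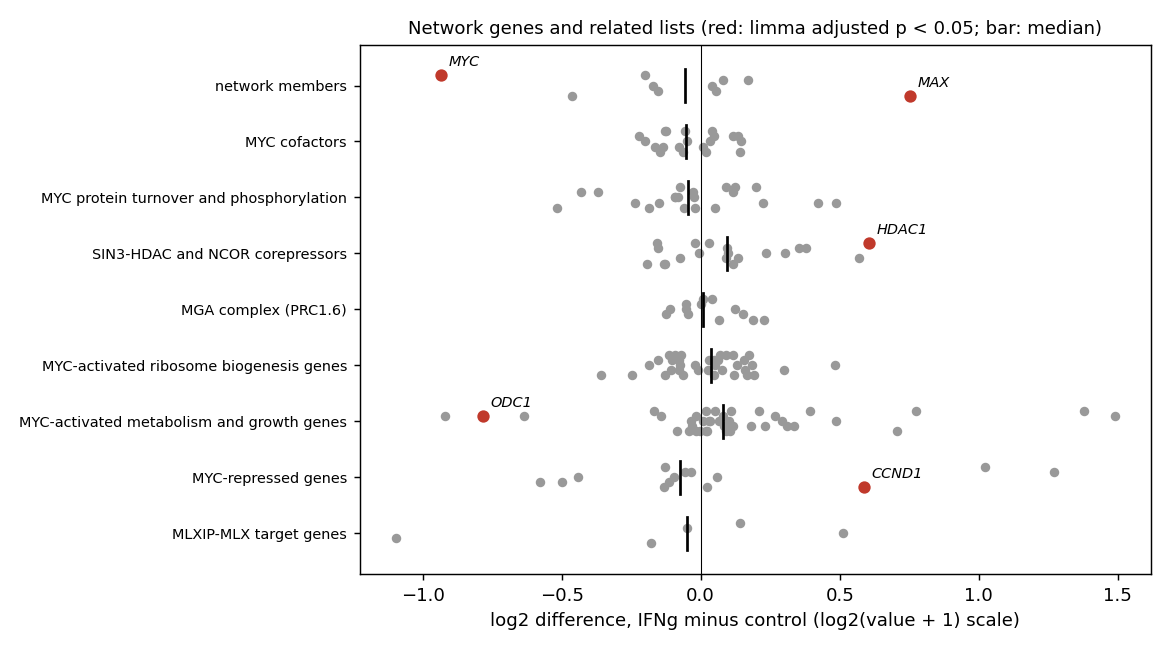
Difference between IFNg and control on the log2(value + 1) scale for each gene of the network and of 8 related lists (points, spread vertically only for view; red where limma adjusted p was below 0.05; black bars are list medians). The medians lie between -0.08 and 0.09, and MYC, MAX, HDAC1, ODC1 and CCND1 are the points that passed.

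The plot of related lists shows the known targets of the network beside its members. The IFNg libraries were all above the controls in 3 of 36 ribosome biogenesis genes, 5 of 41 metabolism and growth genes, 2 of 14 MYC-repressed genes and 0 of 5 MLXIP-MLX targets, against 10.7% of all genes. They were all below the controls in 2, 2, 1 and 1 of these, against 9.28%. Of 36 ribosome biogenesis genes that MYC is known to activate, 0 passed in either direction by limma or edgeR, and DESeq2 called 1 higher. At an unadjusted limma p under 0.05, 2 of the 36 were higher and 1 lower, against 8.81% and 6.46% of all genes. Their median difference was 0.04, beside -0.01 over all genes. UTP20, a processome subunit, had 0.48 ± 0.13 (limma adjusted p = 0.0607), above control in every IFNg library, and MPHOSPH10, another processome subunit, had -0.36 ± 0.13 (limma adjusted p = 0.172), below control in every IFNg library. With both libraries numbered 3 left out, MRTO4 and UTP20 were higher and 0 were lower, as was the case without control 3 alone. Of all genes, 5.67% were higher and 3.85% lower without both, and 5.45% and 2.93% without control 3. The E-box was in the promoter window of 13 of the 27 genes of this list that had one.

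Of 41 MYC-activated genes of metabolism and growth, 0 were higher and 1 was lower by limma and by edgeR, and the median was 0.08. DESeq2 called 1 higher and 1 lower, and 8 of the 41 were higher and 2 lower at an unadjusted limma p under 0.05, against 8.81% and 6.46% of all genes. ODC1, the rate-limiting enzyme of polyamine synthesis and a long-known MYC target, had normalised read counts of 34706, 32977 and 27938 in the controls and 18495, 17651 and 19305 after IFNg. The groups did not overlap, and control 3 was the lowest control, as it was for MYC. The mean fell from 31873 ± 3516 to 18484 ± 827 (SD, n = 3 each), with a difference of -0.78 ± 0.10 (limma adjusted p = 0.000358), and ODC1 passed in all 18 alternatives.

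The E-box was in the window of 19 of the 36 metabolism and growth genes that had one. The ODC1 site is printed with the E-box in capitals because ODC1 is the gene of this list that fell with MYC. A second E-box lies 6 bases into the same transcript, and this window belongs to the second of the 2 RefSeq starts of the gene:

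ODC1, 29 bases before the start, chr2:10448024-10448053, minus strand: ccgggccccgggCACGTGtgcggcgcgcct

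The rest of the metabolism and growth list was sensitive to the libraries numbered 3. Without both, 7 were higher (LDHA, ENO1, TFAM, CDC25A, E2F2, UNG and DCTPP1) and 2 were lower (ODC1 and PPRC1). Over all genes, 5.67% were higher and 3.85% lower in that fit. Without control 3 alone the counts were 7 higher and 1 lower, beside 5.45% higher and 2.93% lower over all genes. UNG, a uracil-DNA glycosylase used in replication, had values of 2566, 2556 and 4200 in the controls and 4287, 4827 and 5769 after IFNg. Control 3 was the nearest control to the IFNg libraries but stayed below them all. With all 6 libraries the UNG difference of 0.71 ± 0.18 had a limma adjusted p of 0.0530. CDC25A, a cell cycle phosphatase, had 1177, 1379 and 2721 in the controls and 2497, 2633 and 3370 after IFNg. Unlike in UNG, control 3 of CDC25A lay within the IFNg range, and with all 6 libraries the CDC25A difference of 0.77 ± 0.25 had a limma adjusted p of 0.138. UNG and CDC25A, like the other members of the 7 and PPRC1, were named after their values were seen.

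Of 14 genes that MYC is known to repress, limma called 1 higher and 0 lower, with a median of -0.08. The counts were 1 higher and 1 lower by edgeR, DESeq2 called 2 higher and 1 lower, and the counts at an unadjusted limma p under 0.05 were also 2 and 1, against 8.81% and 6.46% of all genes. CCND1, the G1 cyclin D1, had values of 47376, 45823 and 41916 in the controls and 69579, 72245 and 61480 after IFNg. Again the groups did not overlap, and library 3 was the lowest of each. The mean rose from 45038 ± 2813 to 67768 ± 5606 (SD, n = 3 each), with a difference of 0.59 ± 0.09 (limma adjusted p = 0.00275), and the call was lost in 1 of 18 alternatives, without the variance trend. Leaving out both libraries numbered 3, CEBPD and CCND1 were higher and GADD45A was lower, likewise without control 3 alone, so the list did not move as 1 group. Of all genes, 5.67% were higher and 3.85% lower without both, and 5.45% and 2.93% without control 3.

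Of 5 genes known as targets of MLXIP and MLX, 0 passed by limma, edgeR or DESeq2, with a median of -0.05. At an unadjusted limma p under 0.05, 1 was higher and 1 lower, against 8.81% and 6.46% of all genes. KLF10, a zinc-finger repressor, had 0.51 ± 0.17 (limma adjusted p = 0.142), with control 3 at 4222 inside the IFNg range and the other controls at 2882 and 2865. ARRDC4, an arrestin-domain protein that limits glucose uptake, had values of 107, 212 and 167 in the controls and 53.0, 81.6 and 88.0 after IFNg. It was lower in every IFNg library, at -1.10 ± 0.40 with a limma adjusted p of 0.194. Without both libraries numbered 3, KLF10 was higher and ARRDC3 lower, against 5.67% and 3.85% of all genes. Without control 3 alone KLF10 was higher, against 5.45% of all genes. The ARRDC4 promoter window holds an E-box, printed in capitals because MLXIP-MLX dimers are known to act on this gene through elements with E-boxes:

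ARRDC4, 210 bases before the start, chr15:97960481-97960510, plus strand: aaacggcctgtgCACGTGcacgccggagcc

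The genes most like MYC over the 6 libraries were found by Pearson's r of log2 values among 11700 other genes with a mean of at least 100, as a description. The points share the same 6 libraries with their depths and 2 groups. The 5 leading genes were NUAK2 (r = 0.999), CTGF (r = 0.998), APBB2 (r = 0.998), TOMM34 (r = 0.997) and HBEGF (r = 0.996), with Spearman's rho of 0.943 or 1. CTGF, a secreted matricellular protein, had values of 64164, 62007 and 28507 in the controls and 24208, 24647 and 19909 after IFNg. HBEGF, an EGF receptor ligand, had 12555, 12621 and 7335 in the controls and 6223, 6214 and 5205 after IFNg. Both share with MYC a control 3 that lay nearer to the IFNg libraries than to the other controls, as the choice by r favours. The log2 differences were -1.09 ± 0.24 for CTGF and -0.84 ± 0.18 for HBEGF. Genes chosen for following MYC over these libraries had to be lower after IFNg, so no p-value is given for them.

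The genes most like MAX by the same measure were PLSCR4 (r = 0.999), FST (r = 0.996), ARSJ (r = 0.996), ARF6 (r = 0.995) and P2RY1 (r = 0.994), each with a rho of 1. PLSCR4, a phospholipid scramblase, had values of 436, 332 and 479 in the controls and 727, 840 and 941 after IFNg. FST, the activin antagonist follistatin, had 1435, 1201 and 1726 in the controls and 2277, 2421 and 2750 after IFNg. In both, as in MAX, the order from control 2, control 1 and control 3 to IFNg 1, IFNg 2 and IFNg 3 was the same. The log2 differences were 1.02 ± 0.21 for PLSCR4 and 0.78 ± 0.15 for FST. Here too the order and the direction follow from the choice by likeness to MAX, so no p-value is given.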

How the data were processed

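Total RNA of HT-1080 cells was depleted of ribosomal RNA and made into stranded libraries read as paired ends, per the labels' protocols. The tools TopHat2 2.0.13, Cuffdiff 2.2.1, Cufflinks and FastQC 0.11.3 appear without roles in the submitters' processing notes, with GRCh37 and hg19 as builds. Which program counted reads, and whether by strand, is not stated there. The signal the authors deposited under the name RPKM proved to be whole reads divided by 1 size factor per library: every positive value, 100%, gave a whole read number to within 0.001 reads, and the factors equal median-of-ratios factors.

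The test was limma 3.58.1 (R 4.3.3) on log2(value + 1), with group as its 1 term and a variance trend, 2-sided, over 15546 genes. A gene needed 0.5 or more in 3 or more of the 6 libraries, which removed 1641. This test had been planned for normalised values and was kept. On the recovered reads, edgeR 4.0.16 (quasi-likelihood, TMM), which called 665 genes where limma called 672, and DESeq2 1.42.0 (1036 genes) were alternatives. The scripts were tested on simulated data. Pseudocounts, filters, scalings, a replicate block, a term for libraries numbered 3 and left-out libraries were alternatives. The members and lists were chosen with earlier results of these data known. Named genes are all members; in each list the genes past the threshold, at most 4 per direction, or the 2 with the smallest p if none passed; and the 5 genes most like MYC and MAX. Some named genes of the lists are not reported here. Exon lengths and overlaps came from GENCODE on GRCh38, and promoter sequences from RefSeq.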

Additional observations from a re-analysis of the deposited data

How the results depend on the processing

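Of the 18 alternatives, limma without its variance trend left 0 members higher and 0 lower, where 320 genes in all were called against 672. The number of members lower was 2, MYC and MXD1, with upper quartile rescaling, with DESeq2, with a term for libraries numbered 3 and without both libraries numbered 3. In that order, these settings called 669, 1036, 1539 and 1481 genes in all, against 672. Leaving out 1 library gave 1 member higher and 0 to 2 lower, where 386 to 1302 genes were called in all. The direction turned only for 2 members that did not pass: MLX to -0.024 without both libraries numbered 3 and to -0.047 without control 3, and MXD3 to 0.15 without control 3 and to 0.035 without IFNg 1. With 1 library left out, MLX ranged from -0.047 to 0.093 and MXD3 from -0.52 to 0.15. The cause was not tested. Counts in the related lists moved most, in number, for the 41 metabolism and growth genes, with 0 to 7 higher and 1 to 2 lower. That list is also the longest, and the 20 SIN3-HDAC and NCOR genes had 0 to 4 higher and 0 lower. Over all genes, 320 to 1539 were called in the alternatives.

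The replicate numbers did not pair the samples at every number. Deviations of same-numbered libraries correlated at 0.0437, 0.0209 and 0.111 for numbers 1, 2 and 3. Among genes with a mean of at least 100 these were 0.069, 0.206 and 0.360. In neither set were all above 0.1. In the second set control 2 correlated at 0.225 with IFNg 1 and 0.206 with IFNg 2. There the libraries numbered 3 shared a deviation, at 0.360, and each correlated negatively with the other numbers, at -0.13 to -0.33. Deviations within a group sum to 0, so the negative values follow in part from the 0.360 and add no separate evidence. The source of that shared deviation was not tested. With the number as a replicate block, 2 members were lower, MYC and MXD1, and 1464 genes were called in all.

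Groups of 3 libraries limit every interval here, and for MXD3, at 168 to 472 reads, spread between libraries was far above counting error. Protein levels were not measured.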
